A study of Mus musculus with 8 samples.

Results

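Klhl31 and 9 genes of the skeletal muscle fibre, Acta1, Ckm, Mylpf, Tnnt3, Tnnc2, Tnni2, Atp2a1, Myh4 and Tpm2, were followed through RNA-seq libraries of the mouse geniculate ganglion. They are 10 of the 15110 genes in the count table, and all 10 were measured. The set was selected on measured values of these libraries, because Klhl31 had few counts in wild type and many in knockout, and the question was whether Klhl31 follows the muscle content of a library. The knockout against wild type values of the members are therefore given as a description, with no test.

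KLHL31 is a kelch-repeat protein of heart and skeletal muscle. Kelch-like proteins commonly hand a bound protein to the CUL3 ubiquitin ligase, and mice that lack Klhl31 develop a skeletal myopathy. The other members encode parts of the fast-twitch fibre, in which myosin heads pull on actin filaments, troponin and tropomyosin gate that pull by calcium, a calcium pump ends it and creatine kinase buffers the ATP it uses. The geniculate ganglion holds the cell bodies of taste and ear sensory neurons of the facial nerve and has no muscle fibres of its own, but it lies in the temporal bone near small muscles and vessels.

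The libraries came from whole ganglia of adult mice of the C57Bl/6 strain, 4 from Egr4+/+ wild type littermates and 4 from Egr4-/- mice, 1 mouse per library. Egr4 is a zinc finger transcription factor, and the title of the series asks about its part in the identity of sweet and umami taste neurons. The labels do not say how Egr4 was inactivated or what the sex of a mouse was. Material was all cells of the ganglion, amplified from 1 ng of total RNA. In such bulk samples more cells of a type and more RNA per cell cannot be told apart.

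Total counts ran from 30849310 to 54255872 per library. Levels here are CPM, counts scaled to a common library size after TMM scaling. The targeted gene Egr4 ranged from 0.925 to 3.24 CPM over the wild type and from 0.444 to 1.22 CPM over the knockout libraries, so the groups overlapped, with wild type 3 (0.925 CPM) inside the knockout range. Whether the counted exons include the deleted part was not tested. Among 12 pan-neuronal genes the summed level was 6810 to 15762 CPM in wild type and 6125 to 16041 CPM in knockout libraries, and none was at 0 throughout. Over the whole table edgeR's quasi-likelihood test called 1 gene (Wdfy1, which is no member and is named after its value was seen) at an adjusted p under 0.05, or 0.00662% of genes.

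Klhl31 lies on chromosome 9 at 77636732 to 77660122 (mm10, plus strand, 3 merged exons, 6257 exonic bases), and its exons overlap no other annotated gene. The deposited counts were 3, 0, 2 and 0 in wild type libraries 1 to 4 and 35, 87, 57 and 620 in knockout libraries 1 to 4. All 4 knockout libraries lay above all 4 wild type libraries, and knockout 4 was 7.07 times the next highest in CPM. In CPM, wild type libraries held 0.0617, 0, 0.0430 and 0 and knockout libraries 0.741, 2.04, 1.05 and 14.4. A count of 0 in wild type 2 allows up to 0.0972 CPM and in wild type 4 up to 0.0668 CPM, taking 3 counts as the limit, so both could still lie near the other wild type libraries. Mean levels were 0.0262 ± 0.0312 CPM for wild type and 4.55 ± 6.58 CPM for knockout (SD, n = 4 each). The fitted log2 fold change was 7.22 ± 1.41 (SE).

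Without knockout 4 the log2 fold change of Klhl31 was 5.39 ± 1.23 (SE). Pooled over libraries, 799 knockout and 5 wild type counts gave a ratio of 143 per total count. For knockout libraries 1 to 3 alone, 179 counts gave a ratio of 41.3. Even the lowest knockout library, with 35 counts, exceeded the 5 counts of all wild type libraries together.

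The promoters of 4 members are shown because their muscle motifs differ while their counts share libraries. Each runs from 250 bases before to 50 bases after the RefSeq start (GRCm38.p6), 5′ to 3′ on the gene's strand, and capitals mark E-boxes (CANNTG, the letters bound by myogenic helix-loop-helix factors). Positions are chr9:77636482-77636781 (plus) for Klhl31, chr8:123894726-123895025 (minus) for Acta1, chr11:67237562-67237861 (plus) for Myh4 and chr4:43523505-43523804 (minus) for Tpm2.
Klhl31: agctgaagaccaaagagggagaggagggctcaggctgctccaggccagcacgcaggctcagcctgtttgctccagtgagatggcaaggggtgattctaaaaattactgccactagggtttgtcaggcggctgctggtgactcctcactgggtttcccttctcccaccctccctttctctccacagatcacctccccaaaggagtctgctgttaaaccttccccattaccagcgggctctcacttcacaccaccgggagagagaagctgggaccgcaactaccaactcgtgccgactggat
Acta1: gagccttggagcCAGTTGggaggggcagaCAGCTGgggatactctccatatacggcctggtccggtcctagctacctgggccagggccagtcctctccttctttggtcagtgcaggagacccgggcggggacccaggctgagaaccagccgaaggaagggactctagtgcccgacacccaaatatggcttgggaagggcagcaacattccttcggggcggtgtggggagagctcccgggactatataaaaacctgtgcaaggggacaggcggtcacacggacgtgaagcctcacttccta
Myh4: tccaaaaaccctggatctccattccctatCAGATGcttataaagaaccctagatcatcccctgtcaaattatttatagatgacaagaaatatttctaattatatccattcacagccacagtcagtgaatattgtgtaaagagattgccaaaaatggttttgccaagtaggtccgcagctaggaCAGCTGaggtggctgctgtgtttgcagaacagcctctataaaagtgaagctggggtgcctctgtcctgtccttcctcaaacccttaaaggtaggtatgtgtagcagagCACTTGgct
Tpm2: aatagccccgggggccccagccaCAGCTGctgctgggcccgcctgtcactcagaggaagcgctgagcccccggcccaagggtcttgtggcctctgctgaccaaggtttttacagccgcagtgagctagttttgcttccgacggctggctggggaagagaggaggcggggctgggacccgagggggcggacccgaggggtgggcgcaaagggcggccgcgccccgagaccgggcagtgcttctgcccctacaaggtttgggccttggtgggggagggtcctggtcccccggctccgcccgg

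The RefSeq table matched 8 of the 10 members, all but Tnnt3 and Tnni2. Both strands were searched, and a match is a description of letters only. An E-box was present in 7 of the 8 windows, all but that of Klhl31, while 72.3% of all 32851 promoters of this length hold such letters. The CArG box, the letters read by serum response factor, was in Acta1 and Myh4 (2 of 8, against 1.63% of all promoters). TATAAA was in 2 of 8 members (Acta1 and Myh4, 13.6% of all) and the MCAT element CATTCC in the same 2 (14.7% of all). The MEF2 motif in its strict form, with C first and G last, was in 0 of 8 (0.557% of all). With C or T first and A or G last, a form added after the data were seen, it was in 1 of 8 (Myh4, 3.19% of all), where it overlapped a TATAAA match on the other strand. Other motifs did not overlap in these members, and the EGR letters GCGNGGGCG were in 0 of 8 (5.55% of all). Klhl31 had a match to none of these motifs, which says only that these letters are not in this window.

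Among the filament genes, Acta1, the actin of skeletal muscle thin filaments, held 5.88, 6.09, 20.4 and 5.14 CPM in wild type libraries 1 to 4 and 8.70, 24.2, 8.87 and 622 CPM in knockout libraries 1 to 4. Wild type 3 was high among the wild types, knockout 4 stood far above every library, and the groups overlapped. The log2 fold change was 4.14 ± 1.43 (SE) with all libraries and 0.57 ± 0.57 without knockout 4. Myh4, the heavy chain of the fastest fibre myosin, held 0.123, 0.0311, 1.44 and 0.177 CPM in wild type and 0.106, 4.21, 0.996 and 123 CPM in knockout libraries. Wild type 3 exceeded knockouts 1 and 3 in Myh4, so the groups overlapped, and the log2 fold change was 6.13 ± 2.03 (SE) with all libraries and 1.98 without knockout 4. Mylpf, the regulatory light chain of fast myosin, held 1.85, 1.21, 7.89 and 3.57 CPM in wild type and 1.97, 4.94, 3.50 and 88.7 CPM in knockout libraries. Wild type 3 lay above knockouts 1 to 3 here, and the log2 fold change of 2.77 ± 1.22 (SE) became -0.07 without knockout 4.

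The troponin genes likewise had knockout 4 highest, and wild type 3 highest among the wild types. Tnnt3, the tropomyosin-binding subunit of fast fibres, held 1.05, 0.870, 6.60 and 1.40 CPM in wild type and 1.16, 6.04, 1.94 and 171 CPM in knockout libraries. Wild type 3 and knockout 2 stood close together, with knockout 4 well above both. Tnnc2, the calcium-binding subunit, held 0.843, 0.621, 5.44 and 1.13 CPM and 0.593, 7.65, 2.27 and 186 CPM, and Tnni2, the inhibitory subunit, held 2.00, 0.932, 3.48 and 1.79 CPM and 3.96, 4.96, 1.68 and 70.2 CPM, wild type first in each. In both genes the groups overlapped, knockout 1 being lowest for Tnnc2 and wild type 2 for Tnni2. The log2 fold changes of Tnnt3, Tnnc2 and Tnni2 were 4.18 ± 1.59, 4.602 ± 1.68 and 3.29 ± 1.10 (SE) with all libraries and 0.29, 0.80 and 0.78 without knockout 4.

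Ckm, the creatine kinase of the fibre's energy store, held 0.494, 0.311, 5.03 and 1.33 CPM in wild type and 0.952, 5.87, 1.83 and 269 CPM in knockout libraries. Wild type 3 lay above knockouts 1 and 3, the groups overlapped, and the log2 fold change was 5.26 ± 1.86 (SE) with all libraries and 0.68 without knockout 4. Atp2a1, the calcium pump of fast fibres, held 2.51, 1.71, 2.62 and 0.310 CPM in wild type and 5.61, 10.6, 2.91 and 547 CPM in knockout libraries. Every knockout library exceeded every wild type library in Atp2a1, although wild type 3 (2.62 CPM) and knockout 3 (2.91 CPM) were close. Its log2 fold change was 6.30 ± 1.83 (SE) with all libraries and 1.83 without knockout 4. Klhl31 and Atp2a1 were the 2 of 10 members whose groups did not overlap, beside 1.21% of all genes with knockout above wild type throughout, and since Klhl31 was picked for that difference nothing is read from the count.

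Tpm2, the beta tropomyosin of muscle and of many other cells, was the exception in its order of libraries. It held 14.05, 13.9, 16.9 and 14.7 CPM in wild type and 26.9, 119, 14.9 and 101 CPM in knockout libraries. Knockout 2 was highest, knockout 4 next, and knockout 3 lay within the wild type range, giving a log2 fold change of 2.14 ± 0.57 (SE), or 1.85 without knockout 4. Knockout 2 was also the highest library for 13 of 16 smooth muscle and pericyte genes, beside 15% of all genes. The summed level of these 16 genes was 397 to 519 CPM in wild type and 310 to 1627 CPM in knockout libraries. Acta2, the smooth muscle actin, was 574 CPM in knockout 2 and 19.03 to 72.9 CPM in the other libraries. The part of smooth muscle RNA in the Tpm2 values was not tested.

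**Figure D1:**
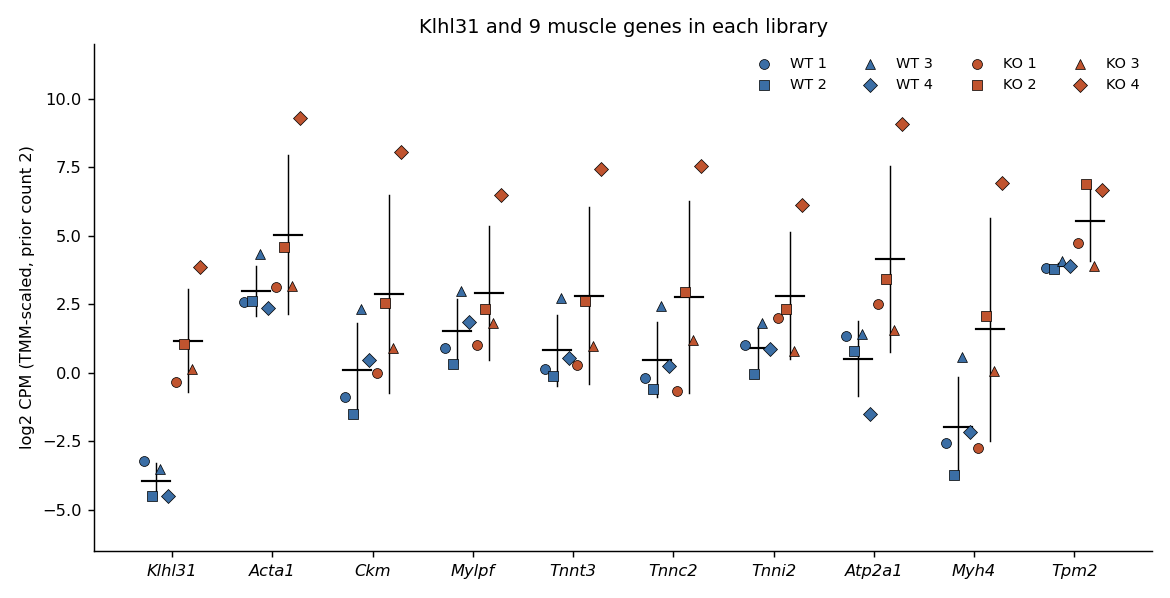
Log2 CPM (TMM-scaled, with a prior count of 2 added before the log) of the 10 members in the 4 wild type (WT) and 4 knockout (KO) libraries, 1 point per library, with lines at the group mean and bars of 1 SD. Knockout 4 is highest for 9 of the 10 members and knockout 2 for Tpm2. The genotypes do not overlap in Klhl31, which was picked for that difference, and in Atp2a1.

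Across the set, 9 of 10 members had their highest level in knockout 4, beside 14.9% of all genes. In wild type, library 3 was the highest for 9 of 9 muscle members and library 2 the lowest for 7 of 9. After knockout 4 was set aside, knockout 2 was the highest knockout library for 9 of 9 muscle members. Wild type 3 exceeded knockout 1 in 6 of 9 and knockout 3 in 8 of 9 muscle members. The median log2 fold change of the 9 muscle members was 4.18 with all libraries and 0.78 without knockout 4, beside 0.01 and 0.000347 for all genes.

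**Figure D2:**
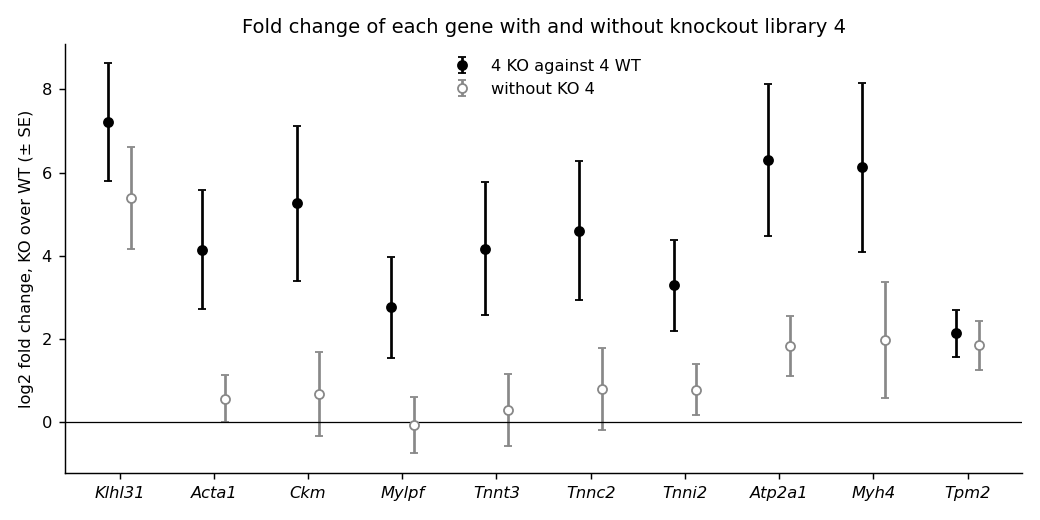
Log2 fold change of knockout (KO) over wild type (WT) for each member, with all 8 libraries (filled points) and without knockout 4 (open points), and bars of 1 standard error. Klhl31 goes from 7.22 to 5.39, whereas the median of the 9 muscle members goes from 4.18 to 0.78.

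Klhl31 was then set against the muscle content of each library as its counts per 1000 counts of the 9 muscle members, a ratio that needs no scaling between libraries. In wild type libraries 1 to 4 the ratio was 2.14, 0, 0.617 and 0. Exact binomial 95% intervals were 0.441 to 6.28 for library 1 and 0.0747 to 2.23 for library 3, and 3 counts would have been 3.64 and 2.25 per 1000 in libraries 2 and 4. In knockout libraries 1 to 4 the ratio was 14.8, 10.9, 27.1 and 6.61, with intervals of 10.3 to 20.7, 8.68 to 13.4, 20.4 to 35.2 and 6.10 to 7.15. All 4 knockout ratios lay above the 4 wild type ratios, and among knockouts the library with the most muscle counts, knockout 4, had the lowest ratio on this denominator. The intervals of knockout 4 and wild type 1 overlapped, and no other knockout interval reached a wild type interval. Klhl31 was picked for few counts in wild type and many in knockout, and those counts are the numerator. Nothing is therefore read from the separation of the genotypes in this ratio, nor with the other denominators below.

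**Figure D3:**
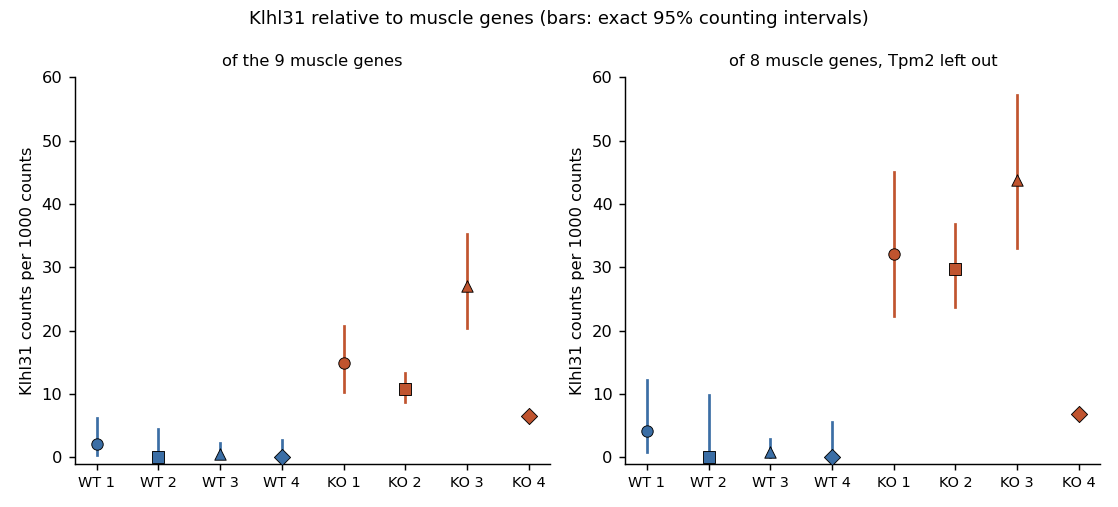
Klhl31 counts per 1000 counts of the 9 muscle members (left) and of 8 of them without Tpm2 (right) in each wild type (WT) and knockout (KO) library, with bars for exact binomial 95% intervals that cover counting error only. On the left the knockout libraries lie between 6.61 and 27.1 and the wild type libraries between 0 and 2.14.

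Tpm2 supplied 4.64% of the 9-gene counts in knockout 4 and 63.5% in knockout 2, so the ratio was also taken without it. Klhl31 per 1000 counts of the other 8 genes was then 4.18, 0, 0.813 and 0 in wild type and 32.1, 29.7, 43.8 and 6.93 in knockout libraries 1 to 4. Knockouts 1 to 3 lay between 29.7 and 43.8 on this scale and knockout 4 well under them, and every knockout ratio remained above every wild type ratio. The interval of knockout 4 (6.39 to 7.50) lay within that of wild type 1 (0.861 to 12.3), and 3 counts in wild type 2 would have been 7.92 per 1000, so with few wild type counts neither of those libraries could be told from knockout 4 at this depth.

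The order of the libraries depended on the denominator. With Acta1 alone, wild type ratios ran from 0 to 10.5 and knockout ratios from 23.1 in knockout 4 to 119 in knockout 3. The interval of wild type 1 (2.15 to 31.0) covered that of knockout 4 (21.3 to 25.1). With Ckm alone the groups overlapped, since wild type 1, with 3 Klhl31 and 24 Ckm counts, was at 125 per 1000 (24.1 to 412) and knockout 4 at 53.5 (49.3 to 58.0). In the fast fibre and shared sarcomere list, Tpm1 and Ldb3 are highest by mean log2 CPM. Its Z-disc gene Tcap exceeded Ldb3 in mean knockout CPM (59.3 against 22.6). With that list as denominator, the ratio was 0.279, 0, 0.189 and 0 in wild type and 3.01, 6.23, 4.11 and 14.5 in knockout libraries. Knockout 4 was then the highest and not the lowest knockout library, and all knockout ratios lay above all wild type ratios. Tpm1 alone held 158 of the list's 228 CPM in wild type 3 and 154 of 246 CPM in knockout 1. In knockout 4 it held 240 of 991 CPM, so the list weighs Tpm1 differently there. The part of RNA from cells other than muscle in the Tpm1 values was not tested.

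The summed 9-gene level was 28.8, 25.6, 69.7 and 29.6 CPM in wild type and 49.9, 188, 38.8 and 2178 CPM in knockout libraries. Wild type 3 thus held more of these transcripts than knockouts 1 and 3, yet it held 2 Klhl31 counts against their 35 and 57. At the ratio of knockout 4, wild type 3 would have held 21.4 Klhl31 counts, knockout 1 15.6 and knockout 3 13.9. The observed count was below that figure in wild type 3 and above it in knockouts 1 and 3. With the fast fibre and shared sarcomere list in place of the 9 genes the corresponding figures were 154, 169 and 201. The observed count was below them in all 3 libraries. In these libraries more of that list's CPM came from Tpm1 than from all its other genes together, unlike in knockout 4. Wild type 3 is also the library whose Egr4 level lay inside the knockout range. No correlation of Klhl31 with muscle content was tested, since the 4 libraries of each genotype form separate clusters in Klhl31 and each holds too few points.

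**Figure D4:**
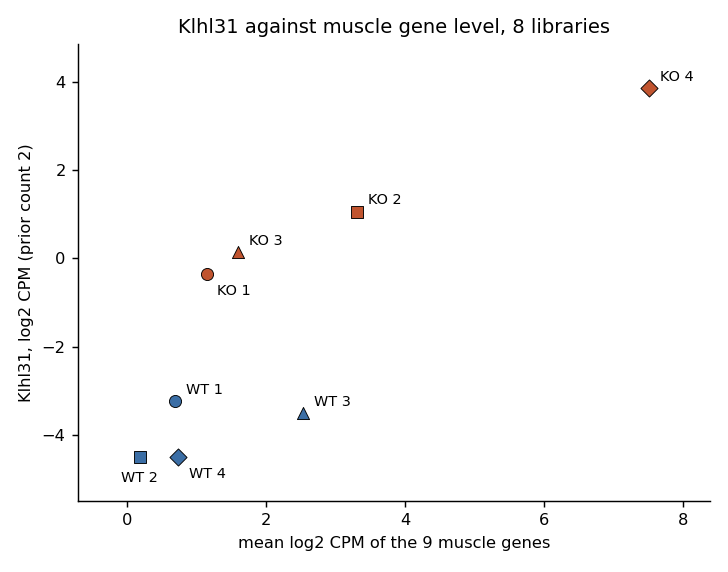
Log2 CPM of Klhl31 against the mean log2 CPM of the 9 muscle members, both with a prior count of 2, 1 point per wild type (WT) or knockout (KO) library. Wild type 3, at a mean of 2.53, lies to the right of knockouts 1 and 3 (1.14 and 1.60) and far lower in Klhl31.

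The muscle members did not keep fixed proportions either. Within the 9-gene counts, Atp2a1 made up 1.05% in wild type 4 and 25.1% in knockout 4, and Myh4 0.121% in wild type 2 and 5.63% in knockout 4. Acta1 ranged from 12.9% in knockout 2 to 29.2% in wild type 3. Acta1 counts per Ckm count were 11.9, 19.6, 4.05 and 3.87 in wild type and 9.13, 4.12, 4.86 and 2.31 in knockout libraries. This ratio was highest in wild types 1 and 2 and knockout 1. Per length, in the deposited FPKM, Klhl31 ranked 9 or 10 of the 10 members in every library and last in 6 of 8, and in knockout 4 it stood at 2.31 FPKM beside 396 for Acta1 and 20.3 for Myh4.

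**Figure D5:**
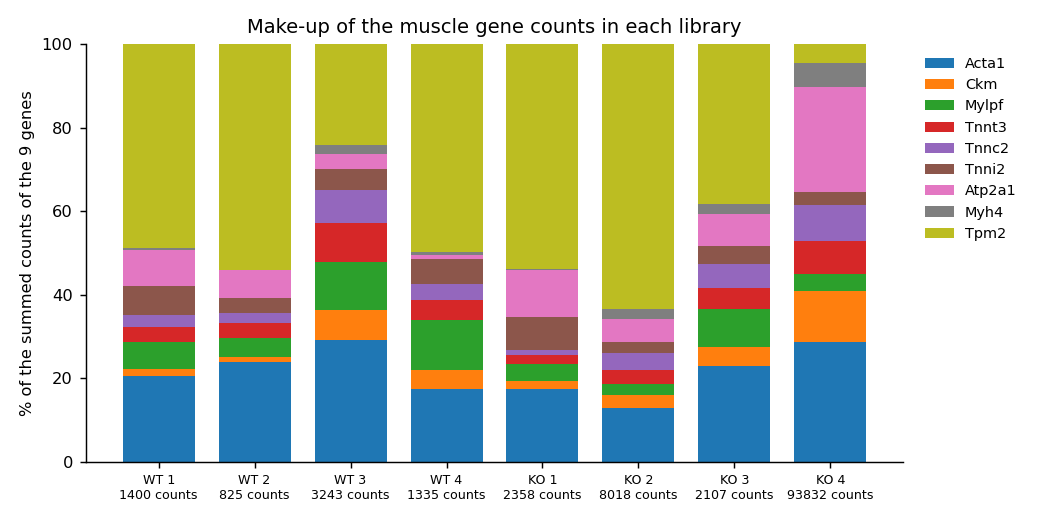
Share of the summed counts of the 9 muscle members that each gene supplied, in percent, as stacked bars for each wild type (WT) and knockout (KO) library with its summed counts below. Tpm2 is 4.64% in knockout 4 and reaches 63.5% in knockout 2, and Atp2a1 reaches 25.1% in knockout 4.

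Some reads of 4 members could come from other genes, since no step that marks strand is described. Exons of Ckm share 451 bases with A930016O22Rik (not analysed here), those of Tnnc2 592 bases with Ube2c, those of Atp2a1 761 bases with Rabep2 and those of Tpm2 4 bases with Car9, all on the opposite strand. Rabep2 averaged 27.3 ± 1.59 CPM over the wild type and 26.2 ± 7.71 CPM over the knockout libraries (SD, n = 4 each), and Ube2c at 10.99 ± 12.1 and 6.30 ± 5.50 CPM. In knockout 4 Ube2c was 1.62 CPM, while Tnnc2 there was 186 CPM. The part of these reads in the low wild type values was not tested.

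Other muscle genes were read from 5 lists that hold 108 genes, of which 69 were measured. With edgeR's quasi-likelihood test 0 of 69 were called (the lowest adjusted p was 0.924), beside 0.00662% of all genes. The count was also 0 with its likelihood ratio test (0.0662% of all genes called), with DESeq2 (0.0931%) and with limma-voom (0.00662%). The authors' deposited table gives 0.0662% of all genes an FDR under 0.05. Klhl31 was among them, but it was chosen for its difference in these counts, so nothing is read from that. The quasi-likelihood test here did not call Klhl31, its only call being Wdfy1. At an unadjusted p under 0.05, 9 of 69 were higher in knockout and 0 lower (13% against 1.94% of all genes higher and 2.9% lower), and 35 of 69 had their highest level in knockout 4 (50.7% against 14.9%). A positive log2 fold change was found in 55 of 69, against 51.3% of all genes. Without knockout 4, 2 of 69 were higher at that level and 0 lower (2.9% higher against 2.34% of all genes, with 2.39% of all genes lower), and the median log2 fold change went from 0.76 to 0.24.

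Of 21 measured fast fibre and shared sarcomere genes, 16 were highest in knockout 4 and 5 passed the unadjusted threshold, namely Myl1, Mybpc1, Ttn, Myot and Des, named after their values were seen. Myl1, the essential light chain of fast myosin, was 170 CPM in knockout 4 and at most 5.99 CPM in any other library. Ttn, the giant spring of the sarcomere, was 39.6 CPM there and at most 2.88 CPM elsewhere. Among muscle energy genes 15 of 16 were measured, and 4 passed it (Eno3, Mb, Cox6a2 and Cox7a1, named after their values were seen). Mb, the oxygen store myoglobin, was 109 CPM in knockout 4 and at most 2.73 CPM elsewhere. None of the 12 measured excitation-contraction coupling genes, 9 slow fibre and cardiac genes or 12 myogenic regulator and neuromuscular junction genes passed it. Among their most abundant genes, the log2 fold change of Casq1, the calcium store protein of fast fibres, was 0.74 ± 0.59 (SE). That of Atp2a2, the calcium pump of slow and cardiac muscle that is also made in other tissues, was -0.15 ± 0.17 (SE). Mef2a and Mef2d, transcription factors of muscle and neurons, had -0.22 ± 0.16 and -0.30 ± 0.23 (SE). Within the sarcomere list, the genes highest by mean log2 CPM, Tpm1, a tropomyosin, and Ldb3, a Z-disc protein, had 0.27 ± 0.19 and 0.04 ± 0.36 (SE). Myod1, Myog, Pax7, Myh7 and Myl2 were not analysed here.

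A second pattern of libraries appeared in some muscle genes and in some neuronal markers. Tcap, the titin cap of the Z-disc, stood at 1.42, 0.684, 0.538 and 58.8 CPM in wild type and 39.4, 3.23, 42.2 and 152 CPM in knockout libraries 1 to 4. Pvalb, a calcium buffer of fast fibres that is also made by neurons, stood at 17.998, 32.0, 11.5 and 512 CPM in wild type and 352, 19.96, 465 and 490 CPM in knockout libraries. Wild type 4 was thus high with knockouts 1, 3 and 4, while wild type 3, the highest wild type for all 9 muscle members, was low. Among the pan-neuronal genes, Snap25, a synaptic fusion protein, stood at 1996, 1401, 2012 and 4411 CPM in the wild type and 2794, 1054, 4191 and 5056 CPM in the knockout libraries. Nefh, the heavy neurofilament subunit, named after its values were seen, stood at 296, 365, 676 and 1638 CPM and 611, 308, 1169 and 1245 CPM in the same order. In Snap25 and Nefh, wild type 4 and knockouts 3 and 4 were again high and knockout 2 low. Not all pan-neuronal genes shared this order. Uchl1 and Prph were highest in wild type 3 (1278 and 973 CPM), and Prph was lowest in knockout 3 (428 CPM). The part of neurons in the Tcap and Pvalb values was not tested.

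Of 10 muscle kelch proteins and subunits of the CUL3 ligase other than Klhl31, 8 were measured and none was called (0 by edgeR's quasi-likelihood and likelihood ratio tests, DESeq2 and limma-voom). Over all genes 0.00662% were called by the first of these. At an unadjusted p under 0.05, 1 of 8 was higher (12.5% against 1.94% of all genes), Klhl33, named after its value was seen, with a log2 fold change of 1.55 ± 0.60 (SE). Cul3, the ligase scaffold, had -0.19 ± 0.17 (SE), and Flnc, the filamin that KLHL31 is known to bind, 0.17 ± 0.85 (SE). Klhl40, a kelch protein of the thin filament, had 0.31 ± 0.43 (SE). Over the 31 measured other KLHL genes the median log2 fold change was -0.17, and calls numbered 0 with DESeq2, limma-voom and both edgeR tests and 0 at an unadjusted p under 0.05, where 1.94% of all genes were higher and 2.9% lower.

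Knockout 4 was set against markers of other tissues that a dissection could hold, beside the 14.9% of all genes highest in that library. Of 7 tendon genes 1 was highest there, of 12 bone and cartilage genes 0, of 16 smooth muscle genes 0 and of 5 adipocyte genes 2. Cfd, an adipocyte protease, was 28.4 CPM in knockout 4 and at most 5.08 CPM elsewhere. None of these lists had a called gene by edgeR's quasi-likelihood test or the other 3 tools, and at an unadjusted p under 0.05 Acta2, Cnn1, Cfd and Plin4 were higher, all 4 named after their values were seen (2 of 16 smooth muscle genes, or 12.5%, and 2 of 5 adipocyte genes, against 1.94% of all genes). Without knockout 4, 6 of 16 smooth muscle genes were higher at that level (37.5% against 2.34% of all genes), with 0 called by edgeR's quasi-likelihood test. So were 1 of 7 tendon genes (Fmod) and 1 of 5 adipocyte genes. The 6 smooth muscle genes, Acta2, Actg2, Tagln, Cnn1, Mylk and Lmod1, named after their values were seen, were all highest in knockout 2. Cnn1 was 30.6 CPM there and 1.97 and 0.664 CPM in knockouts 1 and 3, and Tagln 199 against 37.3 and 37.1 CPM. The part of these tissues in the member values was not tested.

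The 13 measured genes whose starts lie within 1 Mb of that of Klhl31 had log2 fold changes of -0.39 to 0.50, and 0 were called with edgeR's quasi-likelihood test (the lowest adjusted p was 0.924), with 0 at an unadjusted p under 0.05. Over all genes 0.00662% were called, and 1.94% were higher and 2.9% lower at that unadjusted p, so a count of 0 among 13 is near the background. The nearest were Lrrc1, a scaffold protein gene, with 0.06 ± 0.40 (SE), and Gclc, which makes the first step of glutathione synthesis, with 0.02 ± 0.15 (SE). Mlip, which encodes a lamin-interacting protein of muscle, had -0.30 ± 0.32 (SE).

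The genes whose log2 CPM over the 8 libraries was most like that of Klhl31 were Rpf1 and Prrt1 (Pearson r 0.96 each), Kctd6 (0.95), Mcfd2 and Rabepk (0.94 each), and Rbm48, Plin5 and Frg1 (0.93 each). Since Klhl31 was picked for its genotype difference, genes that separate the genotypes lead this ranking. On the same measure the 9 muscle members had r with Klhl31 of 0.70 (Mylpf, rank 284 of 13798 genes) to 0.88 (Atp2a1, rank 25), and Klhl31 had r of 0.82 with their mean. These values are a description over 8 libraries that share knockout 4 as the highest for 9 of the 10 members. Since the genotypes form separate clusters in Klhl31, they do not show whether Klhl31 follows muscle content. Plin5, a lipid droplet protein, averaged 0.113 ± 0.226 CPM over the wild type and 2.46 ± 2.07 CPM over the knockout libraries (SD, n = 4 each). Those most like the mean of the 9 muscle members were Myl1 (0.99), Rbm17 and Ttn (0.95 each), Ccdc6 and Unc45b (0.94 each), and Rfng, Klhl26 and Acad8 (0.93 each). No gene appeared in both groups of 8.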

How the data were processed

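Total RNA of whole geniculate ganglia was sequenced from 4 wild type and 4 knockout mice as read pairs of 150 bp, per the labels' protocols. Tools in the submitters' processing notes are STAR 2.5, Subread 1.5.1 with featureCounts, FastQC 0.11.5 and edgeR 3.12.1, on build mm10. The authors deposited raw read counts and log2 FPKM values per library, and a log2 fold change, p-value and FDR per gene. A gene with 0 counts has a floor value in the deposited log2 FPKM.

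Counts of all 15110 genes went through TMM scaling and edgeR 4.0.16 (R 4.3.3; glmQLFit with robust dispersion, two-sided, Benjamini-Hochberg over all genes, called at 0.05), and 0 genes were removed by filterByExpr. Alternatives used library size alone, RLE factors, a minimum of 1 CPM in 4 libraries, no filter, the likelihood ratio test, DESeq2 1.42.0, limma-voom (limma 3.58.1), a replicate block, and libraries left out. The SE of a log2 fold change is its absolute value divided by the square root of the quasi-likelihood F statistic. Fits were tested on simulated data. Intervals are exact binomial at 95% and, like the limit of 3 counts for a 0, cover counting error only, since PCR copies carry no molecular identifiers. Libraries of a group differed by at least 124 chi-square per degree of freedom, so none was a copy.

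Members and lists were chosen with earlier results of these data known. Besides members, the rule named up to 6 genes per muscle or kelch list and up to 3 per other list, by mean log2 CPM. It also named genes within 1 Mb of Klhl31 and the 8 genes most alike in pattern. Of these, those the results turn on are printed. Exon overlaps came from GENCODE on mm10 and promoters from RefSeq (GRCm38.p6). Sex-linked genes were left out.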

Additional observations from a re-analysis of the deposited data

Results flagged for a closer look

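For the CPM of each member and for Klhl31 per 1000 muscle counts, within each genotype, the gap between the highest or lowest library and its nearest neighbour was divided by the group's range. Of 22 groups of 4 values tested, 13 exceeded Dixon's critical value. For unselected, normally distributed values the rate is about 1 in 20, or 1.1 of 22. That rate does not apply here, since the members were chosen with these data known, and no excess over chance is read from the 13. The values within a library are not independent, since the members share libraries. In 9 of the 13 knockout 4 was the highest library: Klhl31 (0.905), Acta1 (0.975), Ckm (0.982), Mylpf (0.966), Tnnt3 (0.971), Tnnc2 (0.962), Tnni2 (0.952), Atp2a1 (0.986) and Myh4 (0.966). In the other 4, wild type 3 was the highest library: Acta1 (0.938), Tnnt3 (0.908), Tnnc2 (0.894) and Myh4 (0.896). Tpm2 passed in neither genotype. What sets knockout 4 and wild type 3 apart was not tested.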

How the results depend on the processing

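The 1 gene called in the whole table became 0 with RLE factors, with library size alone and without library 4 of both genotypes, 10 with the likelihood ratio test and 14 with DESeq2, and 0 to 1 when 1 library was left out. A replicate block gave 2 called genes. Same-numbered libraries correlated at 0.0040 to 0.149 in their deviations, and libraries with unlike numbers at -0.144 to 0.0692. Since these ranges overlap, they cannot decide whether the numbers pair the mice. Calls in the muscle lists were 0 under all 17 alternatives. The Klhl31 log2 fold change of 7.22 was 4.998 without library 4 of both genotypes, 6.20 with the replicate block, and 5.39 to 7.95 with 1 library left out. Mylpf turned from 2.77 to -0.067 without knockout 4 (-0.067 to 3.49 with 1 library left out) and to -0.0775 without library 4 of both genotypes. Other muscle members moved with the method too: Acta1 from 4.14 to 1.97 with limma-voom and 1.62 with the replicate block, Atp2a1 from 6.30 to 3.55 and 2.53, and Tnnt3 from 4.18 to 1.71 with the block. The median Klhl31 count per 1000 muscle counts was 0.308 in wild type, 4.27 with Ckm alone as denominator and 0 to 0.617 with 1 library left out. In knockout it was 12.8, 30.9 without Tpm2, 84.6 with Acta1 alone, 461 with Ckm alone, 5.17 with the fast fibre and shared sarcomere list, 4.20 in deposited FPKM and 10.9 to 14.8 with 1 library left out. Klhl31 and Myh4 gave no value at 1 CPM or more in 4 libraries. The cause of these shifts was not tested beyond the libraries left out. Wild type counts of Klhl31, 5 in all, limit every ratio.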
